A study of Homo sapiens with 12 samples.

Results

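The inflammatory chemokines described here were CXCL8, CXCL1, CXCL2, CXCL3, CXCL10, CCL2, CCL3, CCL4, CCL20 and CCL22. They were taken by gene symbol from the count table, so that the set held 10 of the 59251 genes listed there. The rule names the genes and uses no measured value, although the set was proposed with results of these data known. Of the 10 genes, 5 had enough counts to be tested, 2 had 13 and 21 counts in all libraries together, and 3 had no count in any library.

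Chemokines are small secreted proteins that guide leukocytes along concentration gradients by binding G protein-coupled receptors on the responding cells. CXC chemokines with an ELR motif, among them CXCL8 and CXCL1 to CXCL3, attract mainly neutrophils through CXCR1 and CXCR2, whereas CXCL10 attracts activated T cells through CXCR3. CCL2 attracts monocytes through CCR2, CCL3 acts through CCR1 among others, CCL20 acts through CCR6 and CCL22 through CCR4. Many of their genes are switched on by NF-κB and AP-1 after cytokine or microbial signals, and their mRNAs are often short-lived because of AU-rich elements in the 3′ UTR. Maturing myeloid cells are among the main producers.

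RNA was sequenced from HL60, a human myeloid leukemia cell line. In 4 groups of 3 libraries, labelled as biological replicates, the cells were left untreated or received 1 µM ATRA (all-trans retinoic acid, a ligand of retinoic acid receptors that drives myeloid differentiation), 1 µM palbociclib (a CDK4/6 inhibitor) or both drugs at these doses, and the treated cells were collected after 48 h. The comparisons asked how each drug alone changed the chemokine transcripts and whether the combination differed from either drug. All results came from a single cell line, the labels do not say whether the replicates were separate cultures, and although the study describes its RNA sequencing as independent experiments, the p-values measure only the spread between these libraries.

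The libraries held between 12230923 and 18679544 counts, with the 3 lowest totals in the combination. Levels are given as CPM (counts scaled to the depth of the library) after TMM scaling, and a library without a count for a gene allowed up to 3 counts, or 0.156 to 0.275 CPM depending on the library. These limits and all counting intervals cover counting error only, because the reads carried no molecular identifiers. The labelled myeloid identity was checked against its markers. CD33 had 1023 to 2359 counts and SPI1 4757 to 10507 counts in every library, whereas ELANE, AZU1 and PRTN3, granule genes that HL60 cells are known for, were listed at 0 in all 12 libraries and are also placed by the table on a contig outside the chromosomes. The epithelial, fibroblast and endothelial markers were at or below 4 counts in every library.

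To show what the 10 genes had in common before their levels are described, the 250 bases ahead of the transcription start were read from RefSeq promoter sequences (GRCh38.p14), which held 8 of the 10 genes. CCL2 and CCL4 had no entry. The 5 promoters below are shown because they cover a strongly counted gene (CXCL8), a barely counted one (CXCL3), a gene at 0 that resembles it (CXCL1), the interferon-type CXCL10 and a CC chemokine (CCL20). They are written 5′ to 3′ on the strand of the gene, each ending at the base before the start, with every motif match in capitals.
CXCL8 promoter, chr4:73740319-73740568, plus strand: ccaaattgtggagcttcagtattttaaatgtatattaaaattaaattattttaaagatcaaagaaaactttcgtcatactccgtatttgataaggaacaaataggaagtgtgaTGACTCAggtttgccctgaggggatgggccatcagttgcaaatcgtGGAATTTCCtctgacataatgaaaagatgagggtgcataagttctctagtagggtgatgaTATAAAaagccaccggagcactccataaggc
CXCL3 promoter, chr4:74038690-74038939, minus strand: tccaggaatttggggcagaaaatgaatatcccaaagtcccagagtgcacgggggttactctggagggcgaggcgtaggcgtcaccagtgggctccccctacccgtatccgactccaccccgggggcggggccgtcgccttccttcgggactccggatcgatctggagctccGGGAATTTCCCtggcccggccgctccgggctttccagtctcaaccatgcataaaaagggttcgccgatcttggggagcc
CXCL1 promoter, chr4:73869143-73869392, plus strand: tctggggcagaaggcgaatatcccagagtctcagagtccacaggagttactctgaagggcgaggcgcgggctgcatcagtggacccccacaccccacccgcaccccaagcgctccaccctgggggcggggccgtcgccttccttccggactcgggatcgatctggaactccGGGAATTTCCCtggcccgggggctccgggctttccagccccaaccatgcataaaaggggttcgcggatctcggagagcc
CXCL10 promoter, chr4:76023498-76023747, minus strand: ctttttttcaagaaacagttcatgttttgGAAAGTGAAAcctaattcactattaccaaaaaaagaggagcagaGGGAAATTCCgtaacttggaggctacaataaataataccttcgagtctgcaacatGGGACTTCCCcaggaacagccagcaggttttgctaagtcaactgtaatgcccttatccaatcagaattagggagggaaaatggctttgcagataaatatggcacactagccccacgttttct
CCL20 promoter, chr2:227813592-227813841, plus strand: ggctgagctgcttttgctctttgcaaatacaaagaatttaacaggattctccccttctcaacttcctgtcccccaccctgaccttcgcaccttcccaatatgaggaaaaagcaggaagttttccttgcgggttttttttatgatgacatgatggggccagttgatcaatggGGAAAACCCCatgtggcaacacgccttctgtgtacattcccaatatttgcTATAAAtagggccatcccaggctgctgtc

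The motifs were searched on both strands. The 9-letter kB sequence GGAATTTCC was found in all 5 CXC promoters, against 0.413% of the 35116 promoters of the same length in the table. It lay 91 to 83 bases before the start in CXCL8, 78 to 70 bases before it in CXCL1 and CXCL3, 77 to 69 bases before it in CXCL2, and as its reverse complement 176 to 168 bases before it in CXCL10. The 10-letter NF-κB consensus, present in 9.96% of promoters, matched CXCL1, CXCL2, CXCL3, CXCL10, CCL20 and CCL22, and in all but CCL20 and CCL22 it overlapped the 9-letter sequence at 1 place. AP-1 (TGANTCA, 6.57% of promoters) matched CXCL8 only, the interferon response motif (3.02%) matched CXCL10 only, C/EBP (TTGCNNAA, 9.05%) matched CXCL2 and CCL3, and TATAAA (10.7%) matched CXCL8, CCL3 and CCL20. The direct repeats DR5 and DR2, the classical retinoic acid response elements, matched in 0.0740% and 0.0313% of promoters and in no window of these 8 genes. The RefSeq start of CCL22, where its window ends, lies 874 bases from the start that the count table uses. The promoters of CXCL1 and CXCL3 were identical at 81.4% of aligned positions and those of CXCL2 and CXCL3 at 73.3%. A match describes letters in a window and is no evidence of binding.

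**Figure D1:**
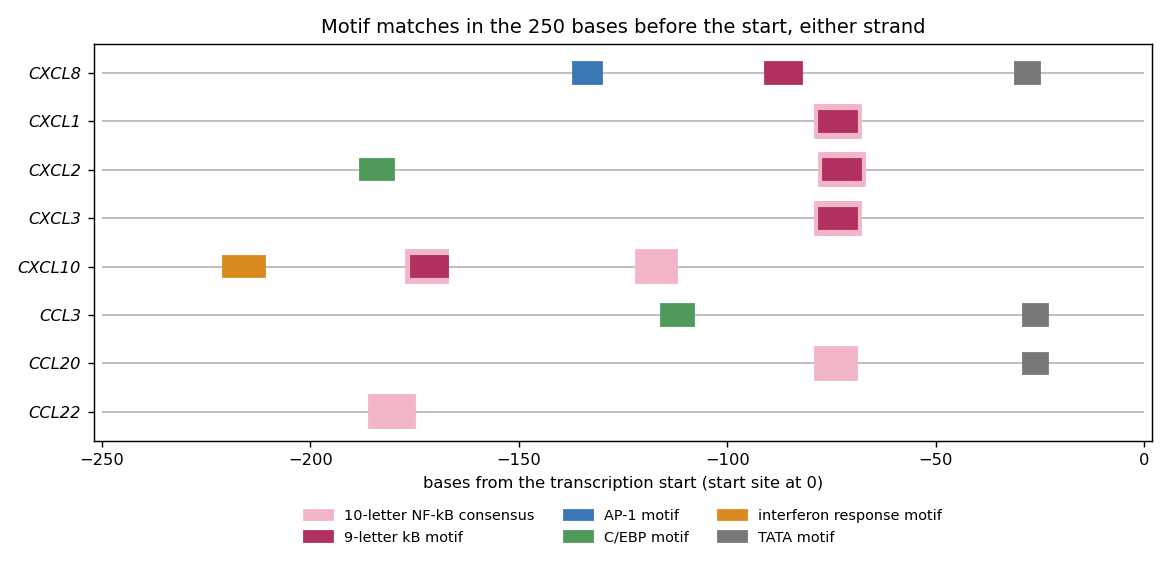
Positions of motif matches on either strand in the 250 bases before the transcription start of 8 chemokine genes, in bases from the start. The 9-letter kB sequence lies between 91 and 69 bases before the start in CXCL8, CXCL1, CXCL2 and CXCL3 and farther upstream in CXCL10.

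The 3′ UTRs of these genes differed widely in AU-rich pentamers. Counts of the DNA letters ATTTA were taken from the 3′ UTRs of GENCODE v44 canonical transcripts, after the expression values had been seen. CXCL2 had 10, CXCL8 9, CXCL3 7, CXCL1 6, CCL3 4, CCL20 3, CCL4 2, CCL2 and CXCL10 1 each, and CCL22 none in a 3′ UTR of 2601 bases. The median of 18471 protein-coding genes was 2 pentamers and 1.64 per kb. Per kb, CXCL8 had 7.19, a density that 3.31% of genes reached, whereas CCL2 had 2.66, which 32.8% of genes reached. The sites below are the 29 bases with the most pentamers in CXCL8, CCL20 and CCL2, the 3 chemokines with the most counts, with the pentamers in capitals.
CXCL8 3′ UTR site: aacctATTTAttATTTAtgtATTTATTTA
CCL20 3′ UTR site: gtattttatgttATTTAtagctgtaggtt
CCL2 3′ UTR site: atgttaattcttATTTAagttattgatgt

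Across all 12 libraries the 10 chemokines fell into 3 sets. CXCL8, CCL2, CCL20, CCL22 and CXCL3 passed the filter on low counts (edgeR filterByExpr, 13318 genes kept) and were tested. CXCL3 and CCL22 passed through the groups in which they were high: with the filter run on ATRA and untreated libraries only, 4 chemokines were tested and CXCL3 was not, and on palbociclib and untreated libraries only, 3 were tested and neither was. Their rise in those groups was thus partly fixed by the filter. CXCL2 had 13 counts and CCL4 21 counts over all libraries and were not tested. CXCL1, CXCL10 and CCL3 were at 0 in every library, and for CXCL1 and CXCL10 0 counts allowed at most the limit given above, as far as their reads were counted. In these bulk libraries, fewer cells that make a transcript and less transcript per cell cannot be told apart.

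**Figure D2:**
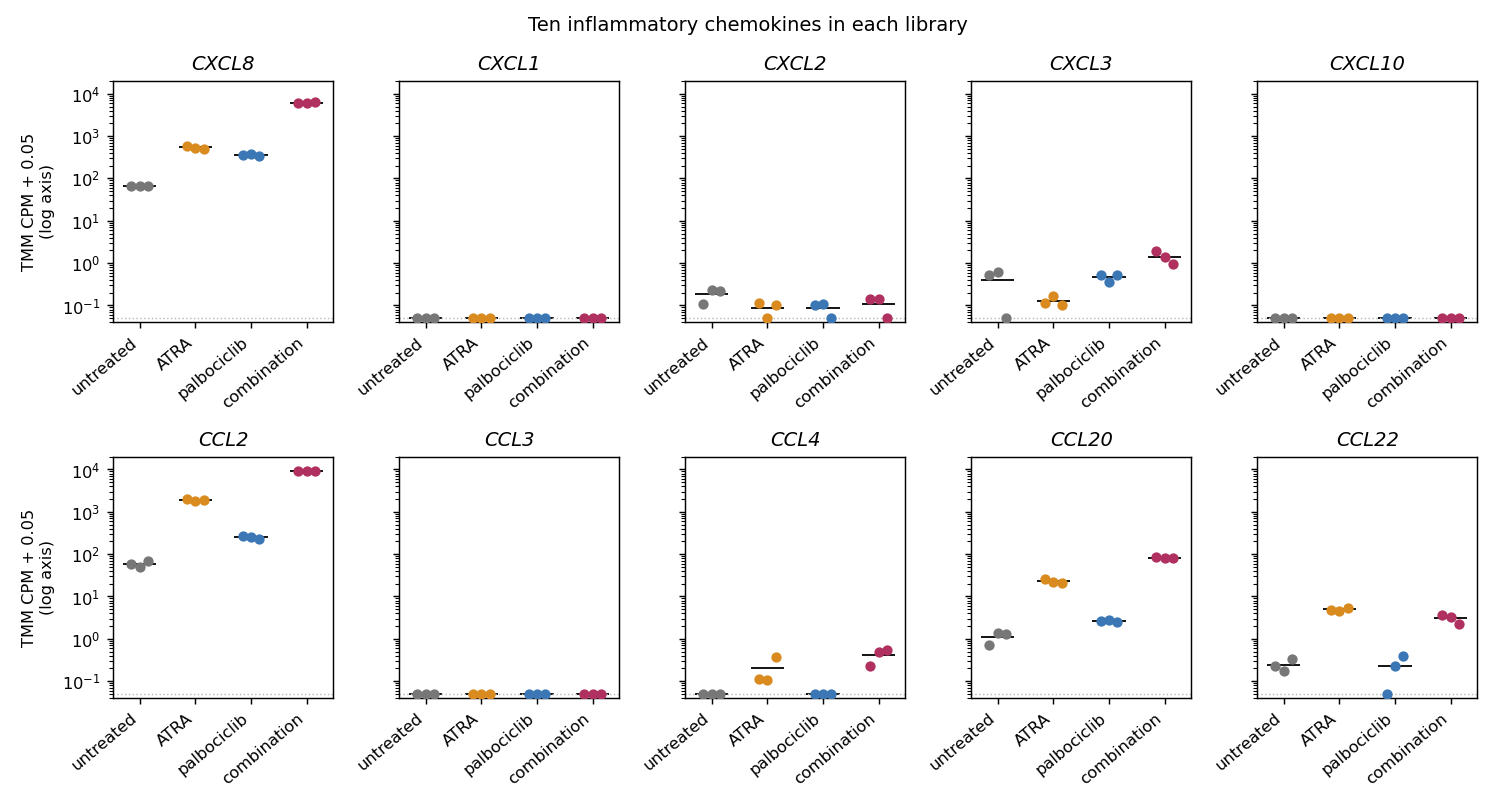
TMM-scaled CPM plus 0.05 (log axis) of the 10 chemokines in each of the 12 libraries, as points, with the group mean as a line. The dotted line is a count of 0. CXCL8 and CCL2 reach means of 6176 and 9219 CPM in the combination, and CXCL1, CXCL10 and CCL3 stay at 0 throughout.

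The genes at or near 0 differed in how unique their sequence is. CCL3 and CCL4 (chr17:36088256-36090143, minus strand, and chr17:36103827-36105614, plus strand) were each listed at 3 places, of which 2 were contigs outside the chromosomes, and 100% of the 50-base stretches of their exons occurred at more than 1 place among the 455 sequences of the hg38 genome searched. Over the whole table, 65.9% of 4379 genes listed on a chromosome and another contig had no count, against 51.0% of 54097 genes listed on chromosomes only. CXCL1 (chr4:73869393-73871308) and CXCL10 (chr4:76021118-76023497) were listed at a single place, and 95.2% and 100% of their 50-base stretches were unique. ZFP36, the gene of tristetraprolin, which destabilizes AU-rich mRNAs, was also at 0 in all 12 libraries, with 100% of its stretches unique. What lies behind a 0 at unique sequence in this table was not tested. How reads with several places were treated is not given in the sources used here, so that the zeros of CCL3 and the low counts of CCL4 cannot be told apart from reads lost at duplicated sequence. For CXCL2 and CXCL3, 9.90% and 4.89% of the stretches occurred elsewhere, and reads of these relatives can be divided between them.

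CXCL8 (chr4:73740569-73743716, 3 exons) encodes interleukin 8, the main neutrophil attractant of human myeloid cells. It had 66.5, 66.5 and 65.7 CPM in the untreated libraries, 581, 531 and 506 CPM with ATRA, 358, 376 and 343 CPM with palbociclib, and 6180, 6041 and 6308 CPM with both drugs. No library of any group overlapped another group, and the order was untreated, palbociclib, ATRA and combination. Separate groups were common in this experiment: the libraries of 2 groups did not overlap for 70.3% of all tested genes in ATRA against untreated, 60.7% in palbociclib against untreated, 81.8% in the combination against untreated, 71.9% in the combination against ATRA and 78.9% in the combination against palbociclib. The rise over untreated cells was 8.14-fold with ATRA, 5.42-fold with palbociclib and 93.3-fold with both (log2 fold changes 3.02 ± 0.05, 2.44 ± 0.05 and 6.54 ± 0.06, SE), and the largest adjusted p of the 3 was 2.05e-38. The combination exceeded ATRA 11.5-fold and palbociclib 17.2-fold.

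CXCL3 (chr4:74036589-74038689, minus strand), a ligand of CXCR2, was present at the edge of detection. It had 8, 9 and 0 counts in untreated cells, 1, 2 and 1 with ATRA, 9, 5 and 8 with palbociclib, and 20, 15 and 11 with both drugs. The combination libraries lay above all others although they held the fewest total counts. The combination was 3.91-fold above untreated cells (log2 fold change 1.97, 95% interval 0.93 to 3.01, adjusted p = 0.000597) and 15.8-fold above ATRA. With ATRA alone the fitted level was lower than in untreated cells (log2 fold change -2.02, 95% interval -3.70 to -0.34, adjusted p = 0.0299), but the untreated library with 0 counts lay below the ATRA libraries, and the call was lost without untreated replicate 1 (adjusted p = 0.125), untreated replicate 2 (0.182), ATRA replicate 1 (0.0757) or ATRA replicate 3 (0.0881), and with DESeq2 (0.0641). The call was kept in the same edgeR test with CXCL1, CXCL2 and CXCL3 summed (log2 fold change -1.97, adjusted p = 0.00872), a sum that also rests on few counts. With palbociclib alone the log2 fold change of CXCL3 was 0.29 (95% interval -0.90 to 1.48). The rise in the combination was smallest without untreated replicate 3 (log2 fold change 1.35, adjusted p = 0.0130). CXCL2, its close relative, had 1, 3 and 3 counts in untreated cells, and 0 or 1 in each of the other 9 libraries.

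CCL2 (chr17:34255285-34257203, 3 exons) encodes the monocyte attractant MCP-1. It had 58.6, 50.7 and 67.5 CPM in untreated cells, 2002, 1828 and 1863 CPM with ATRA, 267, 259 and 226 CPM with palbociclib, and 9182, 9239 and 9234 CPM with both drugs. The groups did not overlap, and the combination libraries differed from each other by less than those of any other group relative to their mean. CCL2 rose 32.1-fold with ATRA, 4.24-fold with palbociclib and 156-fold with both (log2 fold changes 5.01 ± 0.07, 2.08 ± 0.06 and 7.29 ± 0.07, SE). The combination was 4.86-fold above ATRA and 36.8-fold above palbociclib. In the combination, CCL2 took 0.775% to 0.819% of all counts of a library and CXCL8 took 0.517% to 0.551%.

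CCL20 (chr2:227813842-227817556, 4 exons) attracts CCR6-bearing dendritic cells and lymphocytes. It had 0.661, 1.32 and 1.24 CPM in untreated cells, 25.9, 21.4 and 20.9 CPM with ATRA, 2.54, 2.75 and 2.40 CPM with palbociclib, and 87.4, 79.2 and 81.1 CPM with both drugs. The groups again did not overlap, and the order was the same as for CCL2. It rose 21.0-fold with ATRA, 2.38-fold with palbociclib (adjusted p = 1.21e-05) and 76.4-fold with both, and the combination exceeded ATRA 3.63-fold.

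CCL22 (chr16:57357909-57366189, 4 exons), a ligand of CCR4 made by macrophages and dendritic cells, followed another order. It had 3, 2 and 5 counts in untreated cells, 79, 76 and 97 with ATRA, 0, 3 and 6 with palbociclib, and 39, 37 and 27 with both drugs. On the CPM scale the means were 0.196 ± 0.079, 4.89 ± 0.46, 0.178 ± 0.176 and 3.03 ± 0.71 (SD, n = 3), so that ATRA alone gave the highest level and every combination library lay below every ATRA library. The rise over untreated cells was 23.7-fold with ATRA and 14.7-fold with both drugs. The combination was lower than ATRA (log2 fold change -0.69, 95% interval -1.20 to -0.19, adjusted p = 0.0121), and this call was lost without ATRA replicate 3 (adjusted p = 0.0542) or combination replicate 3 (0.105). With palbociclib alone the groups overlapped (log2 fold change -0.21, 95% interval -1.67 to 1.25).

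CCL4, an attractant of monocytes and lymphocytes, had no count in untreated or palbociclib libraries, 1, 1 and 6 counts with ATRA, and 2, 5 and 6 with both drugs. The mean level with both drugs was 2.09 times the limit of 3 counts in each untreated library, with no counting error taken on the combination. Combination replicate 1 was at 0.183 CPM, beside limits of 0.169 to 0.188 CPM in the untreated libraries. CCL4 was not tested, and its reads share their sequence with other places as described above.

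Set against the whole table, these changes stood in a background where most genes moved. With ATRA, 4 of the 5 tested chemokines were higher and 1 was lower than in untreated cells, while 32.1% of all tested genes were higher and 35.5% lower. With palbociclib 3 were higher and none lower, against 28.3% and 27.9% of all genes. With both drugs all 5 were higher than in untreated cells, against 41.0% of all genes (40.7% were lower), all 5 were higher than with palbociclib, against 39.1%, and 4 were higher and 1 lower than with ATRA, against 36.9% and 32.8%. CXCL3 and CCL22 were tested only because of the groups in which they were high, so that these counts of 5 were partly fixed by the filter, and CXCL8, CCL2 and CCL20 were the 3 to which this did not apply. The share of genes called at all was 67.6%, 56.2%, 81.7%, 78.6% and 69.8% in these 5 comparisons, in the same order, so that to be called was the common case.

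The sizes of the changes were set beside the background too. The median log2 fold change of the 5 tested chemokines was 4.39 with ATRA, 1.25 with palbociclib and 6.26 with both drugs, and that of all tested genes was -0.03, 0.02 and 0.02. A rise of at least 4-fold was seen for 4 of the 5 with ATRA (CXCL8, CCL2, CCL20 and CCL22), against 5.76% of all tested genes. It was seen for 2 with palbociclib (CXCL8 and CCL2), against 1.14%, and for 4 with both drugs (all but CXCL3), against 11.0%. CCL2 with palbociclib lay near this limit, at 4.24-fold. Its log2 fold change was as low as 1.99, under 4-fold, when a library was left out. Over ATRA alone, the combination raised CXCL8, CCL2 and CXCL3 at least 4-fold, 3 of the 5, against 2.98%, and over palbociclib alone it raised all but CXCL3, against 8.32%. The 5 chemokines without a test are not in these counts. CXCL3 and CCL22 were tested only because of the groups in which they were high, so that these counts and medians were partly fixed by the filter. CXCL8, CCL2 and CCL20, to which this did not apply, all rose at least 4-fold with ATRA, with both drugs, and with both drugs over palbociclib alone. Over ATRA alone, CXCL8 and CCL2 did and CCL20 did not.

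**Figure D3:**
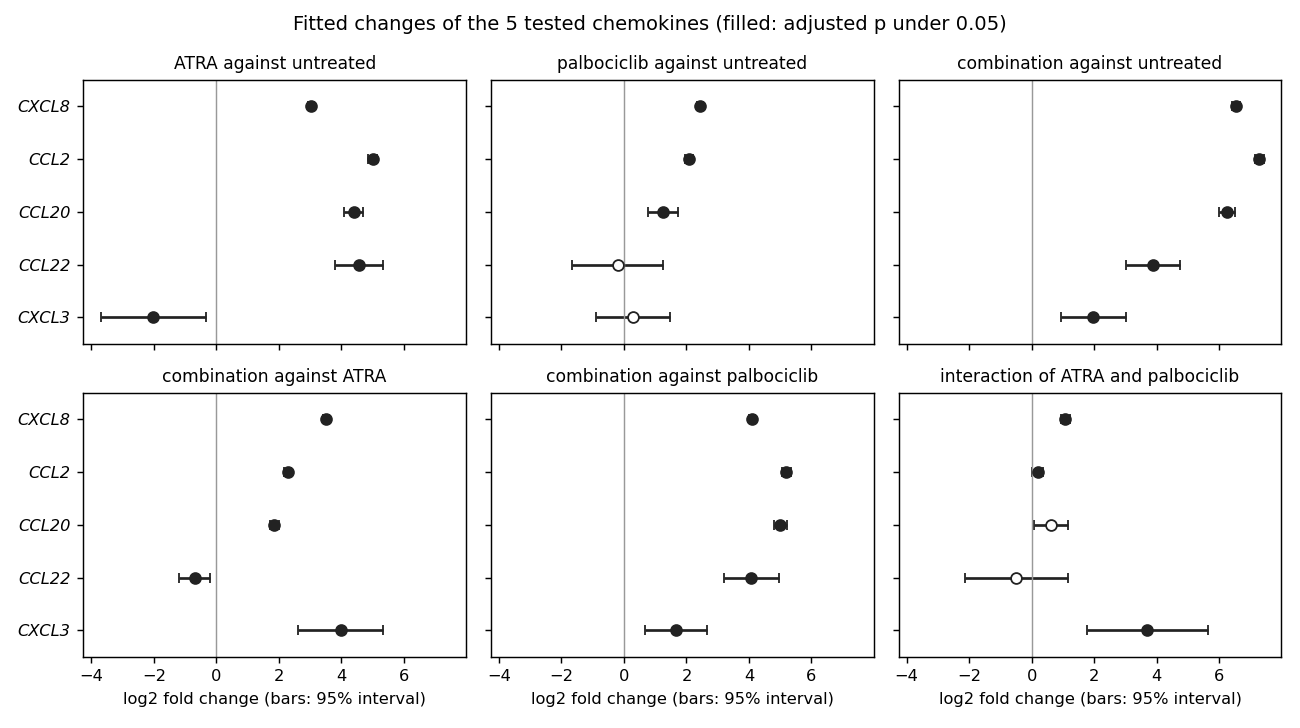
Fitted log2 fold changes of the 5 tested chemokines with 95% intervals in 6 panels, one for each comparison. Filled points have an adjusted p under 0.05. CCL22 is the only gene below 0 in the combination against ATRA, and CXCL3 the only one below 0 in ATRA against untreated.

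The next comparison asked whether both drugs together gave more than their separate effects combined. If the folds of the single drugs multiplied, CXCL8 would have reached 2923 CPM in the combination, and the measured 6176 CPM was 2.11 times that. The interaction on the log2 scale was 1.08 ± 0.07 (SE, adjusted p = 1.08e-18), and 51.4% of all tested genes had an interaction past the threshold, with 24.5% of all tested genes positive. For CXCL3 the measured 1.36 CPM was 14.7 times the product, with an interaction of 3.70 (95% interval 1.76 to 5.64, adjusted p = 0.00107) that rested on few counts and on a gene tested only because of the combination. These 2 chemokines and CCL2 made up the 3 of 5 that passed.

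For CCL2 and CCL20 the call of an interaction depended on the settings. For CCL2 the measured 9219 CPM was 1.14 times the 8066 CPM of the product (interaction 0.20, 95% interval 0.03 to 0.37, adjusted p = 0.0489), and this call did not hold: it was lost under all 6 other ways of processing, and with library size alone the value turned to -0.12. Among the 12 fits that left out a library the call was kept in 5, and the value was lowest without untreated replicate 3 (0.08, adjusted p = 0.466). It also fell by more than 1.5 times without palbociclib replicate 3 (0.12, adjusted p = 0.273). For CCL20 the measured 82.6 CPM was 1.52 times the product (interaction 0.61, 95% interval 0.07 to 1.16, adjusted p = 0.0536), and the call was gained without untreated replicate 1 (0.85, adjusted p = 0.0114) or ATRA replicate 1 (0.71, adjusted p = 0.0210). For CCL22 the measured level was 0.683 times the product, with an interval of the interaction from -2.13 to 1.15. On the additive scale, where the differences of the single drugs from untreated cells were summed, CXCL8, CCL2, CCL20 and CXCL3 lay 7.42, 4.41, 3.41 and 9.52 times above the sum and CCL22 at 0.623 times the sum, as values without a test.

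**Figure D4:**
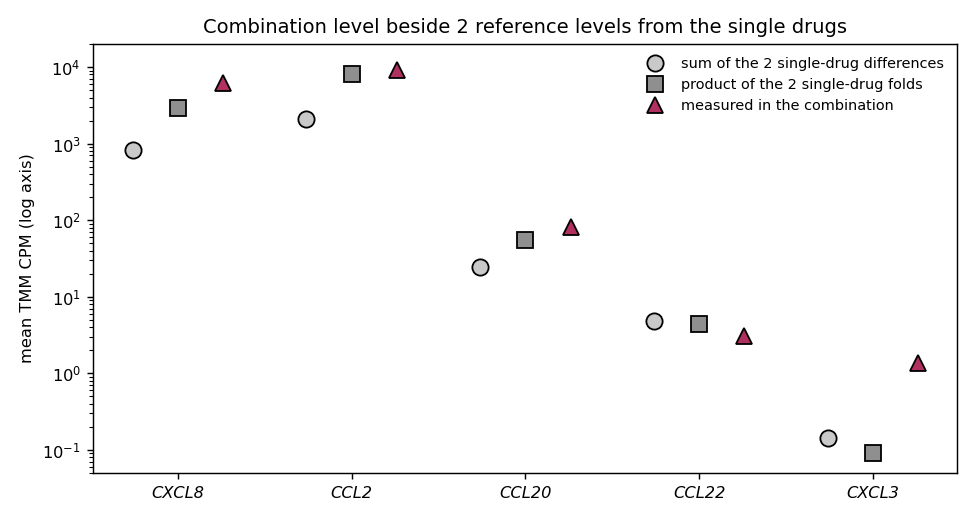
Mean CPM (log axis) measured in the combination beside the level from the summed differences and from the multiplied folds of the 2 single drugs, for the 5 tested chemokines. CXCL8, CXCL3, CCL2 and CCL20 lie above both references, at 2.11, 14.7, 1.14 and 1.52 times the product, and CCL22 lies below both.

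Levels of different genes were compared per kb of the gene length in the table. In untreated cells CCL2 had 79.6 ± 11.3 and CXCL8 32.2 ± 0.2 CPM per kb (SD, n = 3), followed by CCL20 with 1.29 ± 0.43, and all 3 CCL2 libraries lay above the CXCL8 libraries. With both drugs the order was CCL2 with 12441 ± 43, CXCL8 with 3001 ± 65, CCL20 with 99.0 ± 5.2, CXCL3 with 1.26 ± 0.43 and CCL22 with 0.961 ± 0.225 CPM per kb. The last 2 did not differ beyond their spread, and the other neighbours did. By this measure CCL2 ranked 738th of 59251 genes in untreated cells, 13th with ATRA, 157th with palbociclib and 1st with both drugs. CXCL8 ranked 1824th, 193rd, 302nd and 27th. The table's length sums every place at which a gene is listed, which lowers the per-kb level of genes placed on several contigs.

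Of the other 38 chemokine genes, 22 were at 0 in every library and 7 passed the filter. All 7 were higher with both drugs than in untreated cells (41.0% of all tested genes) and than with ATRA (36.9%), but CCL7, CCL1, CCL24, CXCL16 and CCL3L1 had few or no counts in untreated and palbociclib libraries and passed through the groups in which they were high, so that the count of 7 was partly fixed by the filter. CCL24, an eosinophil attractant, had no count in untreated cells, 12, 21 and 11 with ATRA, 3, 0 and 0 with palbociclib, and 312, 302 and 270 with both drugs. Its mean level with both drugs was 145 times the limit of 3 counts in each untreated library. CCL7, a monocyte attractant near CCL2 on chromosome 17, had 16, 28 and 27 counts with both drugs and none in the other 9 libraries. Its mean level with both drugs was 11.5 times that limit. It was called by edgeR and not by DESeq2 (adjusted p = 0.117).

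CCL1 was at 1 to 4 counts in each of the other libraries and at 96, 90 and 68 with both drugs, which was 63.7 times the ATRA level (95% counting interval 28.8 to 175). CCL1 was the only one of the 7 with an interaction past the threshold (95% interval 1.62 to 7.39 on the log2 scale), and since it was tested only because of the combination, this value was partly fixed by the filter. CXCL16, a membrane-bound chemokine, rose from 1 count in untreated cells altogether to 194, 268 and 248 with both drugs, and the gene overlaps MED11 and ZMYND15 on the opposite strand. Whether the counting used strand is not given in the sources used here. CCL23, another attractant of myeloid cells, averaged 0.342 ± 0.143 CPM in untreated cells and 9.09 ± 0.88 with both drugs (SD, n = 3).

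Of the near-copies of CCL3 and CCL4, CCL3L1 and CCL4L1 had more counts than these genes, whereas CCL3L3 and CCL4L2 had no count in any library. CCL3L1 had 2, 0 and 0 counts in untreated cells, 26, 21 and 20 with ATRA, 8, 10 and 2 with palbociclib, and 129, 154 and 186 with both drugs. CCL4L1 had 4, 2 and 0 counts in untreated cells, 50, 63 and 83 with ATRA, 16, 16 and 11 with palbociclib, and 207, 232 and 310 with both drugs. Both were listed only on a contig outside the chromosomes, and 87.9% and 100% of their 50-base stretches occurred elsewhere, so that their reads cannot be assigned to them rather than to CCL3 and CCL4. With the family members summed, the CCL3 family was 8.16 and the CCL4 family 7.45 higher on the log2 scale with both drugs than in untreated cells (adjusted p = 4.35e-24 and 3.75e-28), and 3.38 and 2.49 higher than with ATRA. The CCL3 family sum consisted of CCL3L1 alone, whose 2 untreated counts lay in a single library. Without untreated replicate 1 the log2 fold change over untreated cells was 10.7 for CCL3L1 and 8.33 for CCL4L1, and without untreated replicate 3 it was 7.61 and 6.82.

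**Figure D5:**
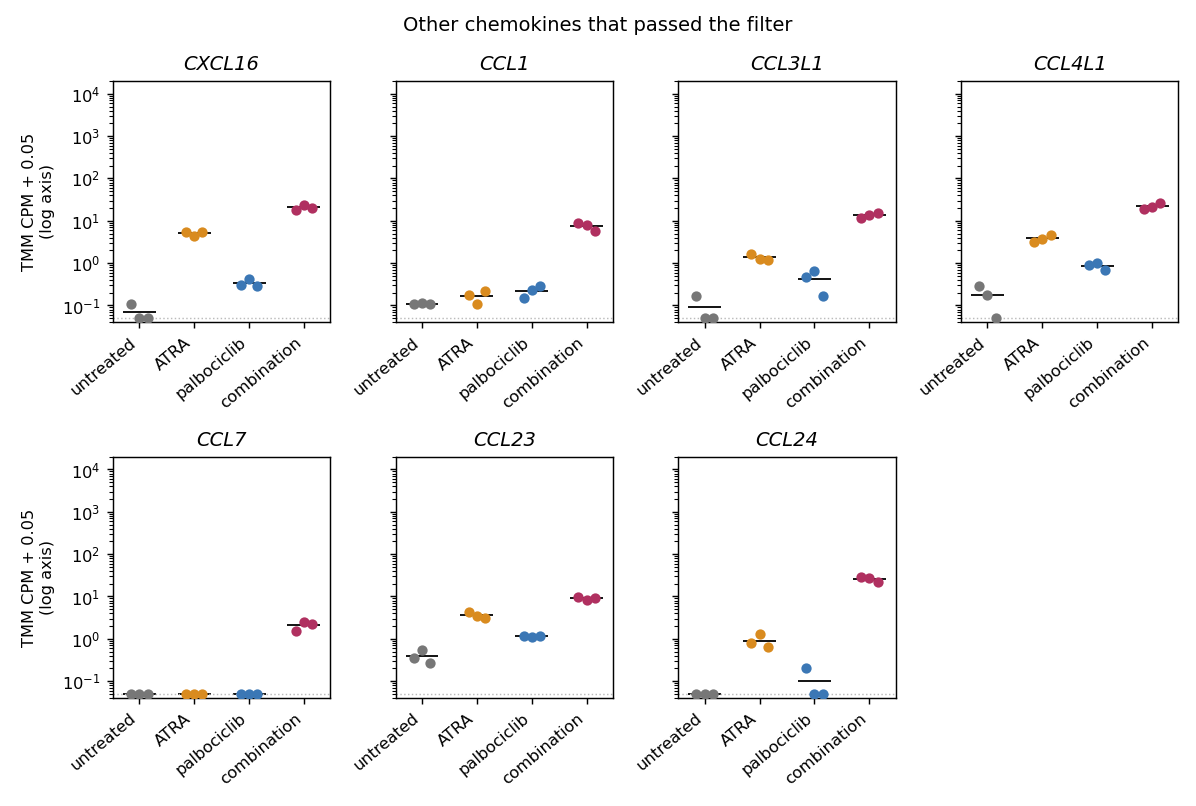
TMM-scaled CPM plus 0.05 (log axis) of the other 7 chemokines that passed the filter, as points for each library with the group mean as a line. The combination libraries are the highest in all 7 panels, and CCL7 is at 0 outside the combination.

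Of 23 chemokine receptor genes, 12 were tested, of which 11 rose with ATRA, 3 with palbociclib and 9 with both drugs, against 32.1%, 28.3% and 41.0% of all tested genes, with median log2 fold changes of 3.26, 0.46 and 2.77 against -0.03, 0.02 and 0.02. With library size alone, 7 of them were higher and 1 lower with both drugs. CXCR2, the receptor of CXCL8 and CXCL1 to CXCL3, averaged 46.0 ± 2.0, 72.7 ± 3.9, 64.6 ± 5.3 and 48.3 ± 4.2 CPM in untreated, ATRA, palbociclib and combination cells (SD, n = 3). It was lower in the combination than with ATRA (log2 fold change -0.59, adjusted p = 6.70e-12), in contrast to its ligand CXCL8. CCR1, a receptor of CCL3, averaged 15.3 CPM in untreated cells, 178 with ATRA, 23.8 with palbociclib and 360 with both drugs. CCR2, the receptor of CCL2, fell below the level at which genes were to be named and is given because its ligand was so abundant. It had 0.213, 1.78, 0.0962 and 0.176 CPM in the 4 groups in the same order, and it was lower in the combination than with ATRA (log2 fold change -3.29). It was tested only because of its counts with ATRA, so that this difference was partly fixed by the filter. CXCR5, the receptor of CXCL13, rose from 0.516 to 142 CPM with ATRA and 267 CPM with both drugs. ACKR2, a decoy receptor that binds and removes CC chemokines, rose from 0.333 to 6.17 and 7.14 CPM.

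The 26 genes of the NF-κB, AP-1 and C/EBP list, which holds these transcription factors together with inhibitors and kinases of the NF-κB pathway, were all tested. With both drugs 24 were higher than in untreated cells, 1 was lower (NFKBIB) and 1 was not called (ATF3, 2.12 and 2.39 CPM), and the median log2 fold change was 2.12 against 0.02 for all tested genes, of which 41.0% were higher and 40.7% lower. All 26 were higher with both drugs than with ATRA, against 36.9% of all tested genes. With ATRA alone 20 rose and 2 fell, against 32.1% and 35.5% of all tested genes, and with palbociclib 11 rose and 6 fell, against 28.3% and 27.9%, with medians of 0.87 and 0.08 against -0.03 and 0.02. The interaction was positive and past the threshold for 25 of the 26, against 24.5% of all tested genes, with a median of 0.76 against -0.02. With library size alone as the scaling, which moved the median of all tested genes to -0.34, the count was 14 of the 26, and 22 of the 26 were higher with both drugs than with ATRA. These are transcripts of the regulators, and the activity of the proteins was not measured.

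Among them, FOS rose from 1.61 CPM in untreated cells to 20.4 with ATRA, 3.35 with palbociclib and 131 with both drugs. JUN had 11.5, 32.5, 5.15 and 226 CPM in that order, and thus fell with palbociclib alone. BCL3, a nuclear partner of NF-κB, had 2.04, 20.0, 6.04 and 127 CPM. The feedback inhibitor NFKBIA had 21.3, 37.3, 24.9 and 125 CPM, RELB had 10.1, 20.5, 23.7 and 69.3 CPM, and RELA, the common activating subunit, had 91.9 CPM in untreated cells and 131 CPM with both drugs. CEBPB went from 37.3 to 264 CPM with ATRA and 329 CPM with both drugs, and had 38.5 CPM with palbociclib. IRF1, an interferon-induced regulator, was likewise high in both groups given ATRA, with 10.9, 75.7, 10.5 and 72.2 CPM in the 4 groups.

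Of 11 cytokine genes known to induce chemokines, 6 were at 0 throughout and 3 were tested. IL1A and IL1B had 0.235 and 4.31 CPM in untreated cells and 238 and 1451 CPM with both drugs, and TNF, below the level at which genes were to be named, had 1 to 2 and 25 to 38 counts in a library. All 3 were higher with both drugs than with ATRA, against 36.9% of all tested genes, but TNF was tested only because of its counts in the combination. Of 10 interferon-related regulators, 8 were tested, and 6 were higher and 1 lower with both drugs than in untreated cells, against 41.0% and 40.7% of all tested genes, and the interaction was positive for none and negative for 2 of the 8, against 24.5% and 27.0% of all tested genes, and negative for 6 with library size alone.

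Genes that act on chemokine mRNA or protein were also counted. Of 12 regulators of mRNA stability, 1 was at 0 in every library (ZFP36) and 9 were tested. With both drugs 7 were lower and 2 higher than in untreated cells, against 40.7% and 41.0% of all tested genes, and the median log2 fold change was -0.76 against 0.02 for all tested genes. HNRNPD and KHSRP, which promote decay of AU-rich mRNAs, fell by 1.63 and 1.49 on the log2 scale, from 973 to 315 CPM and from 641 to 228 CPM. ZFP36L2, of the tristetraprolin family, fell from 329 to 147 CPM, and ELAVL1, which stabilizes such mRNAs, fell from 245 to 127 CPM. ZC3H12A, the nuclease Regnase-1, rose from 8.02 to 37.9 CPM. Of 11 proteases and proteoglycans that trim or present chemokines, 6 were tested, and 5 were higher and 1 (CTSG) lower with both drugs, against the same shares. CTSG ranged from 5 to 262 counts in a library. MMP8 was higher by 10.2 to 10.3 on the log2 scale in the fits that left out a library. The filter may thus have partly fixed these counts. ADAM10 and ADAM17, which shed CXCL16, rose by 1.43 and 1.89 on the log2 scale.

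Markers of other blood cells moved with the treatments as well. The summed level of 10 monocyte and macrophage markers was 30.0 to 33.1 CPM in untreated cells, 32.8 to 35.4 with ATRA, 55.9 to 64.0 with palbociclib and 84.0 to 92.3 with both drugs. Of the 10, 5 were tested, of which 4 were higher and 1 lower both with ATRA and with both drugs than in untreated cells, with median log2 fold changes of 2.47 and 3.50 against -0.03 and 0.02 for all tested genes, of which 32.1% were higher and 35.5% lower with ATRA and 41.0% and 40.7% with both drugs. Against ATRA, 4 were higher and 1 lower with both drugs, beside 36.9% and 32.8% of all tested genes. CSF1R was tested only because of the groups given ATRA, in which it was high. CSF1R, FCN1 and CD68 reached 132, 156 and 420 counts, whereas CD14, CD163 and MRC1 had at most 5, 1 and 2 counts in any library. The summed HL60 myeloid list was 7124 to 7473 CPM in untreated cells and 2037 to 2081 CPM with both drugs, led by the fall of MPO from 6517 to 28.0 CPM, while ITGAM, the gene of CD11b, rose from 9.25 to 590 CPM. Over all libraries the summed T and NK cell markers lay between 3.27 and 6.63 CPM, the B cell markers between 13.1 and 25.3 CPM and the erythroid and megakaryocyte markers between 1.62 and 9.99 CPM, and the highest counts of single markers were 59 for CD3E, 81 for NKG7, 457 for CD79A and 141 for ITGA2B, with at most 1, 0 and 0 for CD3D, MS4A1 and HBB. Their part in the chemokine levels was not tested.

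The tested genes whose 3 fold changes against untreated cells were nearest to those of CXCL8, among 9297 genes with a mean of at least 5 CPM, were FPR1, CDKN2B and SGK1, at distances of 0.490, 0.707 and 0.936 on the log2 scale. FPR1, the formyl peptide receptor of neutrophils, had log2 fold changes of 3.43, 2.51 and 6.28 with ATRA, palbociclib and both drugs. The nearest to CCL2 were ITGAX, LRRC25 and ARHGEF3, at distances of 0.327, 0.533 and 0.594. ITGAX, the gene of the integrin CD11c, had log2 fold changes of 4.94, 2.40 and 7.33. These distances were computed over the means of 4 groups of 3 libraries, and the 3 comparisons share the untreated libraries.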

How the data were processed

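Total RNA of 12 HL60 libraries was sequenced by the authors from a directional kit. Reads were trimmed with Trimmomatic 0.33 and aligned to hg38 with STAR 2.7.11a per the labels. The deposited table holds raw counts per gene for each library. The study's methods name RSEM for these counts, whereas the table has the layout of another counter, and strand and multi-mapping settings are not given in the sources used here. All 12 libraries were fitted in a single model of 4 groups with edgeR 4.0.16 (TMM scaling, filterByExpr, quasi-likelihood F test, two-sided, Benjamini-Hochberg adjustment over 13318 genes, threshold 0.05), in R 4.3.3. The interaction was the combination minus ATRA minus palbociclib plus untreated on the log2 scale. With 3 libraries against 3, no exact permutation test can reach the threshold. Named genes outside the 10 chemokines were the tested chemokines and listed genes with a mean of at least 5 CPM, plus the 3 genes nearest to CXCL8 and to CCL2, with exceptions marked. The chemokines and gene lists were chosen with earlier results of these data known. The procedure was tested on simulated data. Alternatives were DESeq2 1.42.0, other scalings and filters, a replicate block, only the groups compared, family sums and each library left out. All pairs of replicates differed by more than sampling noise.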

Additional observations from a re-analysis of the deposited data

Results flagged for a closer look

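The effect of palbociclib differed between cells with and without ATRA past the threshold for 3 of the 5 tested chemokines, against 51.4% of all tested genes, in a test of the difference itself (the interaction, edgeR quasi-likelihood test with Benjamini-Hochberg adjustment). CXCL8 rose 5.42-fold with palbociclib alone and 11.5-fold when palbociclib was added to ATRA, an interaction of 1.08 on the log2 scale (adjusted p = 1.08e-18), and every combination library lay above every other library. CXCL3 had an interaction of 3.70 (adjusted p = 0.00107), from 46 counts in the 3 combination libraries and 4 in the 3 ATRA libraries, and it was tested only because of the combination, so that this value was partly fixed by the filter. CCL2 had an interaction of 0.20 (adjusted p = 0.0489), which passed in the reported fit and in 5 of the 12 fits without a library, was lost under all 6 other ways of processing and was -0.12 with library size alone, so that the CCL2 call rests on the settings used.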

How the results depend on the processing

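Asking for at least 10 counts in every library left 3 of the chemokines tested (CXCL8, CCL2 and CCL20). The number called then became 3 in ATRA against untreated, in the combination against untreated, against ATRA and against palbociclib, by construction because fewer genes were tested, and 1 for the interaction, where CXCL3 was no longer tested and the CCL2 call was lost. Leaving out each library in turn gave 4 to 5 chemokines for ATRA against untreated and the combination against ATRA, 5 for the combination against untreated and against palbociclib, 3 for palbociclib and 2 to 4 for the interaction.

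The CCL2 interaction of 0.20 was 0.17 with DESeq2 size factors (adjusted p = 0.0868), 0.20 with at least 10 counts (0.0501), 0.11 with no filter (0.315), 0.16 with DESeq2 (0.408) and -0.12 with library size alone (0.192), and between 0.08 and 0.29 without a library. Scaling by library size only moved the median over all tested genes to -0.25 in the combination against untreated and to -0.34 in the interaction, and the share of called genes that were higher went from 50.2% to 40.5% and from 47.5% to 18.5%. It went from 53.0% to 31.6% against ATRA and from 49.8% to 36.7% against palbociclib. Under that scaling the CXCL8 interaction was 0.76 (adjusted p = 1.43e-13). Among results not called, the sign turned for CCL22 with palbociclib without untreated replicate 3 (0.15) or palbociclib replicate 1 (0.42), for the CCL22 interaction without palbociclib replicate 3 (0.46), and for CXCL3 with palbociclib without untreated replicate 3 (-0.32) or with CXCL1, CXCL2 and CXCL3 summed (-0.076). Without a library, CCL22 with palbociclib ranged from -1.16 to 0.42, the CCL22 interaction from -1.11 to 0.46 and CXCL3 with palbociclib from -0.32 to 0.81. The causes were not tested.

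The replicate numbers did not pair the libraries. Over 18 pairs with the same number the correlation of deviations from the group means lay between -0.07 and 0.03. With a replicate block in the fit the numbers of chemokines called were 5, 3, 5, 5, 5 and 3 as before, but among the interactions CCL2 lost its call (0.20, adjusted p = 0.0624) and CCL20 gained one (0.62, adjusted p = 0.0462). Genes called in the combination against untreated went from 10885 to 10824. Few counts limit the precision for CXCL3, CXCL2 and CCL4.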
